A study of Homo sapiens with 10 samples.

Results

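MET, AXL, SIRT1, NOTCH1, NOTCH2, JAG1, MYC and FOXP1 are 8 signaling and transcription factor genes that the literature lists as targets of miR-34a-5p. They were chosen by name, with earlier results of these data known, and they are 8 of the 58395 genes in the count files and 8 of the 16905 that passed the filter on low counts. Their RNA was followed by RNA-seq of total RNA in HeyA8, an established cell line from a human ovarian cancer. Every group received a duplex at 10 nM. The non-targeting control siNT1, which the labels call siNT1 S2'OM, was sampled 24 and 48 h after transfection, as was siGGGGGC. For siGGCAGU the only time was 48 h. The labels name siMxy and si34a, read here from the paper as siGGGGGC and siGGCAGU. The methods list siNT1, siGGCAGU and siGGGGGC with the same modification mark, on the first 2 bases of the passenger strand. The labels carry a modification mark for siNT1 alone. siGGGGGC and siGGCAGU carry the name of their guide's 6mer seed, positions 2 to 7 from the 5′ end, and no group was left untransfected. Each of the 5 groups had 2 libraries, made from duplicate wells of the same line, so the p-values measure the spread between wells and libraries.

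miR-34a is a p53-induced tumor suppressor microRNA that pairs through its seed with short matches, mostly in the 3′ UTRs of messenger RNAs, and lowers their amount and translation. MET and AXL are receptor tyrosine kinases of growth and invasion; in Notch signaling, ligands such as JAG1 on a cell trigger cleavage of the receptors NOTCH1 and NOTCH2 on its neighbour, and the freed intracellular domain enters the nucleus to activate genes. SIRT1 is an NAD-dependent deacetylase of p53 and histones, MYC a transcription factor of growth and ribosome production, and FOXP1 a forkhead transcription factor.

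The mature sequences below show what siGGCAGU shares with miR-34a-5p. Capitals mark bases 2 to 8, and sequences and hg38 places are those of RefSeq on GRCh38.p14. The guide of siGGCAGU has the same bases 2 to 7, while base 8 differs (G8A, counted from 1 at the 5′ end, miR-34a-5p first). The table is not complete, and miR-34c-5p was not analysed here. Of its 2370 mature human miRNAs, 4 carry GGCAGU at positions 2 to 7, and 3 of these also share base 8.
hsa-miR-34a-5p (chr1:9151735-9151756, minus strand): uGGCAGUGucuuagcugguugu
hsa-miR-449a (chr5:55170586-55170607, minus strand): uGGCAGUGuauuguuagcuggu
hsa-miR-449b-5p (chr5:55170706-55170727, minus strand): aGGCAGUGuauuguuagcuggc
hsa-miR-548au-3p (chr9:93594874-93594894, plus strand): uGGCAGUUacuuuugcaccag

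The 3′ UTR of each of the 8 genes, the longest in GENCODE 44, held the word ACTGCC that pairs with this seed. There were 14 such matches in all, 2 in each of 6 genes and 1 each in AXL and MYC. Windows of 26 bases from hg38 follow for 7 genes, written 5′ to 3′ on the gene's strand, with the 6mer match in capitals.
MET site 1 (chr7:116796164-116796189, plus strand): aatggttttttcACTGCCtgaccttt
MET site 2 (chr7:116798278-116798303, plus strand): tagatacttgtcACTGCCtatacctg
AXL (chr19:41259937-41259962, plus strand): tccaagctaagcACTGCCactgggga
NOTCH1 site 1 (chr9:136495877-136495902, minus strand): ttacacagaaacACTGCCtttttatt
NOTCH1 site 2 (chr9:136495148-136495173, minus strand): ctggggaaagacACTGCCtgggctga
NOTCH2 site 1 (chr1:119914249-119914274, minus strand): agcattccattgACTGCCtgtatgga
NOTCH2 site 2 (chr1:119912826-119912851, minus strand): gaggaggacaacACTGCCtttcaaac
JAG1 site 1 (chr20:10639472-10639497, minus strand): cagaccgcgggcACTGCCgccgctag
JAG1 site 2 (chr20:10638182-10638207, minus strand): gccatagagtacACTGCCtgccttaa
SIRT1 site 1 (chr10:67917472-67917497, plus strand): cacaagtattaaACTGCCaaaatgtg
SIRT1 site 2 (chr10:67918015-67918040, plus strand): gctaggaccattACTGCCagagaaaa
FOXP1 site 1 (chr3:70958768-70958793, minus strand): atgttgattatcACTGCCtttactcc
FOXP1 site 2 (chr3:70955757-70955782, minus strand): gtttatcctaccACTGCCttcctggc

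The base before the capitals faces guide base 8, and an A after them makes a match 1 base longer. For miR-34a-5p itself, 1 match was an 8mer (AXL), 9 were 7mers with base 8 paired, 2 were 7mers with the A, and 2 were 6mers, NOTCH2 site 1 and the MYC site. For the guide of siGGCAGU, 11 of the 14 were 6mers, 2 were 7mers with the A, and SIRT1 site 2 was the 1 8mer. ACTGCC was present in the longest 3′ UTR of 32.7% of 19248 protein-coding genes, and in 48.0% of the 6026 genes whose 3′ UTR was as long as those of the 8, which ran from 1638 nt in NOTCH1 to 4554 nt in FOXP1. At least 2 copies were found in 11.2% and 17.3% of these genes. Since these genes are listed as targets partly for such sites, their presence is a description.

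The word GCCCCC, which pairs with the seed of siGGGGGC, was in the 3′ UTR of 4 of the 8 genes, against 30.2% of protein-coding genes and 38.3% of those with a 3′ UTR of like length. AXL held 2 copies and NOTCH1, NOTCH2 and JAG1 held 1 each, while MET, SIRT1, MYC and FOXP1 held none. The AXL copies lay near the 3′ end of its 1862 nt 3′ UTR, and both are shown because AXL separated the duplexes most among the genes that fell with both. The word CGACTA of siNT1 was in none of the 8 3′ UTRs and in those of 2.74% of protein-coding genes.
AXL GCCCCC site 1 (chr19:41261576-41261601, plus strand): ctgtgggggtgtGCCCCCttcaagcc
AXL GCCCCC site 2 (chr19:41261659-41261684, plus strand): tcgggccatgttGCCCCCgtgagcca

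**Figure D1:**
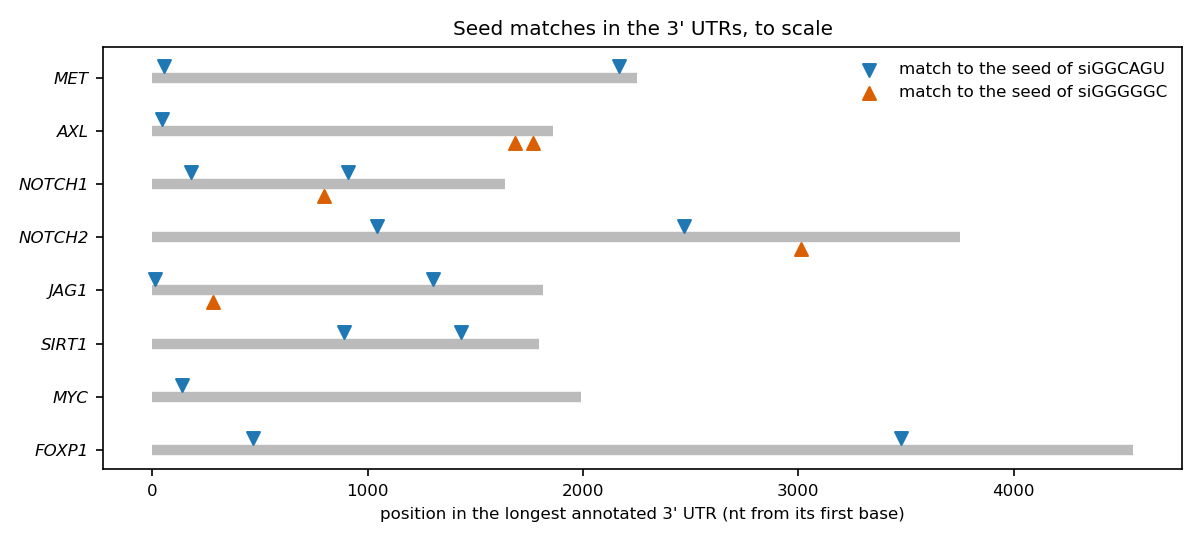
Positions of the seed matches, in nucleotides from the first base of the longest annotated 3′ UTR, with each 3′ UTR drawn to scale as a grey bar. Blue triangles above the bar are matches to the seed of siGGCAGU (14 in 8 genes) and orange triangles below it matches to the seed of siGGGGGC (5 in 4 genes).

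All 8 genes were measured at levels that differed widely in the control cells. In RPKM, which scales counts by exon length and library size, AXL was highest in siNT1 at 48 h, at 69.2 ± 4.27 (SD, n = 2), above 96.7% of the genes tested. MET (16.6 ± 0.890) and MYC (15.5 ± 0.895) followed and their libraries overlapped. NOTCH2 was at 8.42 ± 2.18, SIRT1 at 2.89 ± 0.494 and FOXP1 at 1.30 ± 0.00193. NOTCH1, at 0.440 ± 0.205, and JAG1, at 0.143 ± 0.0245, were low, above 24.8% and 10.2% of the genes tested. The exon length takes in all annotated isoforms, 32800 nt for FOXP1, so the RPKM of genes with many isoforms is understated. In bulk RNA, fewer cells with a transcript and less of it per cell cannot be told apart.

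Library totals ranged from 19781445 to 42428986 counts, and RN7SL2 and SNORD3A took 19.83% to 31.96% of them. The epithelial keratins KRT7, KRT8 and KRT18 and PAX8 were present in every library, each with at least 84 counts, MUC16 and CDH1 had at most 26 counts in a library, and the mesenchymal VIM had at least 18721. None of the 5 leukocyte markers passed the filter, with a summed level of at most 0.422 CPM, counts scaled to library size. The sum over the 8 ovarian carcinoma markers was 734 to 831 CPM in siNT1 at 48 h. It was 835 to 856 in siGGCAGU and 251 to 281 in siGGGGGC. Over the 4 mesenchymal markers the sum was 2424 to 2846, 2213 to 2332 and 972 to 1010. With siGGGGGC, 5 of the 6 ovarian carcinoma markers tested and 4 of 4 mesenchymal markers were called lower, as were 27.5% of all genes. With siGGCAGU, 2 of the 6 were called lower and 2 higher, and of the 4 mesenchymal markers 1 each way. Over all genes, 24.9% were called lower and 27.8% higher. Mean normalised counts went from 108.1 in siNT1 to 42.59 in siGGCAGU for WT1 and from 6130 to 8440 for KRT8. They went from 38310 to 28000 for VIM and from 17590 to 26490 for FN1. At 24 h the sums were 693 to 702 in siNT1 and 732 to 789 in siGGGGGC for the first list, and 1685 to 1728 and 1211 to 1225 for the second. The 4 endothelial markers summed to between 0.802 and 2.77 CPM in any library. The part of these shifts in the results on the 8 genes was not tested. The mature miRNAs were not measured: the MIR34A and MIR34B genes had 0 counts in every library, while the host transcript MIR34AHG had between 101 and 548, not called with siGGCAGU (0.059, adjusted p = 0.758) and higher with siGGGGGC at 48 h (0.64, adjusted p = 0.0012).

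With siGGCAGU at 48 h, 7 of the 8 genes fell against siNT1, all 7 by more than 1 on the log2 scale, and none rose. JAG1 was the exception. All 7 were still called when any 1 of the 4 libraries compared was left out, but without siNT1 replicate 1 the changes of NOTCH1 (-0.58), SIRT1 (-0.84) and NOTCH2 (-0.94) were smaller than 1, which left 4 beyond it. SIRT1 was at -0.84 without siGGCAGU replicate 1 and -0.99 with upper quartile normalization, and AXL was at -0.99 without siGGCAGU replicate 2. Over all genes tested, 24.9% were called lower and 27.8% higher at an adjusted p below 0.05 (edgeR's quasi-likelihood test), and 9.62% were called lower with a log2 change beyond 1. The median log2 fold change of the 8 genes was -1.13, beside 0.024 over all genes tested. Both siGGCAGU libraries were below both siNT1 libraries for each of the 8, which held for 34.9% of all genes tested.

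With siGGGGGC at 48 h, 5 of the 8 genes fell (AXL, MYC, MET, FOXP1 and NOTCH2), NOTCH1 rose, and JAG1 and SIRT1 were not called. Over all genes, 27.5% were called lower and 27.8% higher. AXL, MYC and MET fell by more than 1 on the log2 scale, where 11.0% of all genes were called lower. The median of the 8 was -0.86, beside -0.011 over all genes. These values and those of siGGCAGU were taken against the same siNT1 libraries, so they are given side by side and not as independent results.

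**Figure D2:**
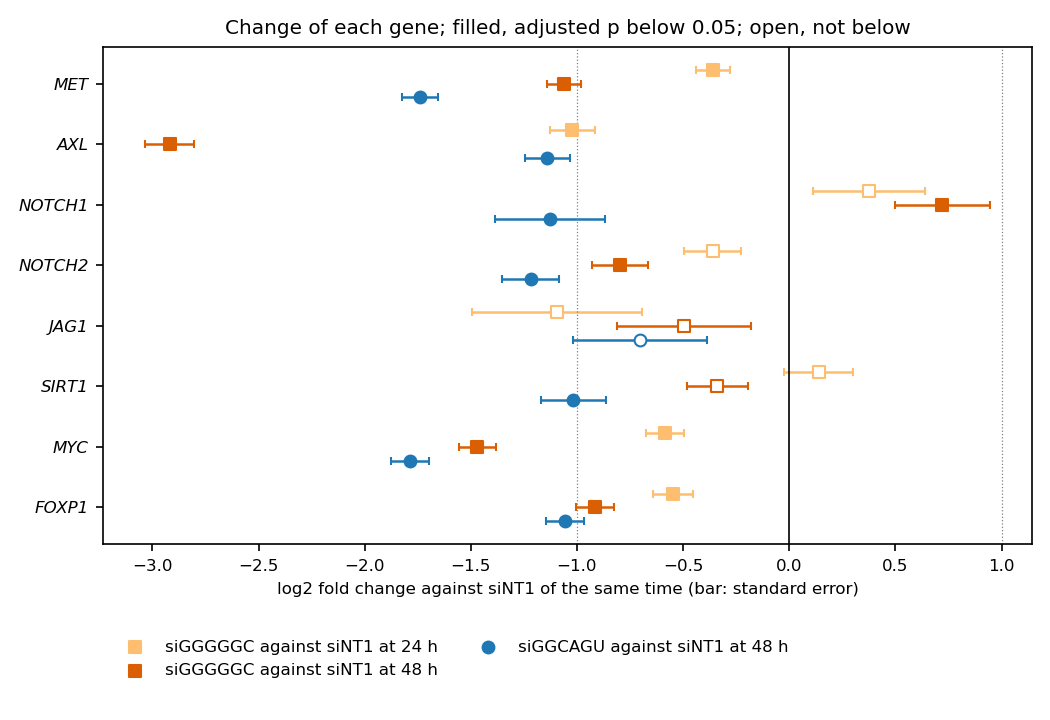
Log2 fold change against siNT1 of the same time (x axis, bars are the standard error of the edgeR fit) for each gene and duplex; filled points had an adjusted p below 0.05. All 8 blue points (siGGCAGU, 48 h) lie between -1.79 and -0.70, whereas those of siGGGGGC at 48 h run from -2.92 for AXL to 0.72 for NOTCH1.

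MET, the receptor of hepatocyte growth factor, was at normalised counts of 3231 and 2995 in the siNT1 libraries at 48 h, 938 and 926 in siGGCAGU and 1472 and 1509 in siGGGGGC. The duplicates were close and the 3 groups did not overlap. MET fell by 1.74 on the log2 scale with siGGCAGU (SE 0.0835, adjusted p = 2.44e-10), to 29.9% of siNT1, and by 1.06 with siGGGGGC (SE 0.0814, adjusted p = 3.97e-08). MET holds no GCCCCC in its 3′ UTR and 1 in its coding sequence.

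AXL, a receptor of the TAM family that binds GAS6, showed the reverse order of the duplexes. Its counts at 48 h were 9633 and 8828 in siNT1, 4658 and 3723 in siGGCAGU and 1146 and 1293 in siGGGGGC. It was lowest in siGGGGGC, with no overlap between the groups. AXL fell by 1.14 with siGGCAGU (SE 0.106, adjusted p = 2.66e-07), to 45.4% of siNT1, and by 2.92 with siGGGGGC (SE 0.114, adjusted p = 3.71e-11), to 13.2%. Besides the 2 copies in its 3′ UTR, its coding sequence holds 5 copies of GCCCCC. In the coding sequence, NOTCH1, which rose with siGGGGGC at 48 h, holds 9, NOTCH2 5 and JAG1 3. MYC holds 2 there, MET and FOXP1 1 each, and SIRT1 0. Whether these copies bear on the changes was not tested.

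Of the 3 Notch genes, NOTCH1 moved in opposite directions with the 2 duplexes. Its counts at 48 h were 190.5 and 96.2 in siNT1, 60.2 and 67.7 in siGGCAGU, and 220.2 and 244 in siGGGGGC. The siNT1 libraries differed by 1.98 times from each other, more than in any of the other 7 genes at that time, and lay between the groups. NOTCH1 fell by 1.13 with siGGCAGU (SE 0.258, adjusted p = 0.00178) and rose by 0.72 with siGGGGGC (SE 0.224, adjusted p = 0.0130). Without siNT1 replicate 1 the fall with siGGCAGU was -0.58 (adjusted p = 0.0196) and the rise with siGGGGGC 1.26 (adjusted p = 1.81e-05). The rise was no longer called without siNT1 replicate 2 (0.28, adjusted p = 0.16) or without siGGGGGC replicate 2 (0.64, adjusted p = 0.0894).

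NOTCH2, the more abundant of the receptors, was at 4335 and 2994 in siNT1 at 48 h, 1505 and 1639 in siGGCAGU and 2121 and 2094 in siGGGGGC. Both duplexes gave levels below either siNT1 library. It fell by 1.22 with siGGCAGU (SE 0.133, adjusted p = 1.58e-06), to 43.0% of siNT1, and by 0.80 with siGGGGGC (SE 0.131, adjusted p = 0.000101). Without siNT1 replicate 1 the siGGGGGC value was -0.52 (adjusted p = 0.000616). Reads shared with the near-identical NOTCH2NLA could not be assigned with certainty, and how many reads were left uncounted for this reason is unknown.

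JAG1, the ligand, had few counts: 38.7 and 30.4 in siNT1 at 48 h, 22.2 and 20.1 in siGGCAGU and 27.9 and 20.7 in siGGGGGC, on the normalised scale. The levels with both duplexes lay below both siNT1 libraries, but the changes were not called. The log2 fold change was -0.70 with siGGCAGU (95% interval -1.38 to -0.033, adjusted p = 0.0732) and -0.50 with siGGGGGC (-1.16 to 0.17, adjusted p = 0.195), or -0.29 without siGGGGGC replicate 2. At this depth a fall as large as that of NOTCH2 lay within the first interval. With no filter on low counts the siGGCAGU value was -0.78 and passed (adjusted p = 0.0468).

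SIRT1 was at 384 and 301 in siNT1 at 48 h, 139.9 and 191 in siGGCAGU and 282 and 259 in siGGGGGC. Both duplexes lay below siNT1, siGGCAGU further. SIRT1 fell by 1.02 with siGGCAGU (SE 0.152, adjusted p = 3.97e-05), to 49.4% of siNT1. With siGGGGGC the log2 fold change was -0.34 (95% interval -0.65 to -0.027, adjusted p = 0.0613). The latter rested on the siNT1 libraries, at -0.17 without replicate 1 (adjusted p = 0.386) and -0.52 without replicate 2 (adjusted p = 0.0108). It also passed without RN7SL2 and SNORD3A (adjusted p = 0.0455), with no filter (-0.46, adjusted p = 0.00587) and with a crossed replicate block (adjusted p = 0.0495), and not under the 9 other alternatives.

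MYC had 1 seed match for siGGCAGU and no GCCCCC in its 3′ UTR, and 2 GCCCCC in its coding sequence. It fell with both duplexes. Its counts at 48 h were 2561 and 2360 in siNT1, 693 and 729.7 in siGGCAGU and 853 and 923 in siGGGGGC. Both treated groups were far below siNT1 and did not overlap each other. MYC fell by 1.79 with siGGCAGU (SE 0.0883, adjusted p = 3.14e-10), to 29.0% of siNT1, and by 1.47 with siGGGGGC (SE 0.0871, adjusted p = 2.83e-09), to 36.1%. Of its exons, 194 nt overlap the antisense gene CASC11, and the strand setting of the counting is not given in the sources used here.

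FOXP1 was the steadiest in the control, at 1109 and 1107 in siNT1 at 48 h, with 518 and 545 in siGGCAGU and 611 and 564 in siGGGGGC. It fell by 1.06 with siGGCAGU (SE 0.0896, adjusted p = 9.76e-08), to 48.0% of siNT1, and by 0.91 with siGGGGGC (SE 0.0894, adjusted p = 5.11e-07), to 53.1%. FOXP1 shares 2539 nt of exon with another annotated gene on the same strand, so its count may miss reads there.

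**Figure D3:**
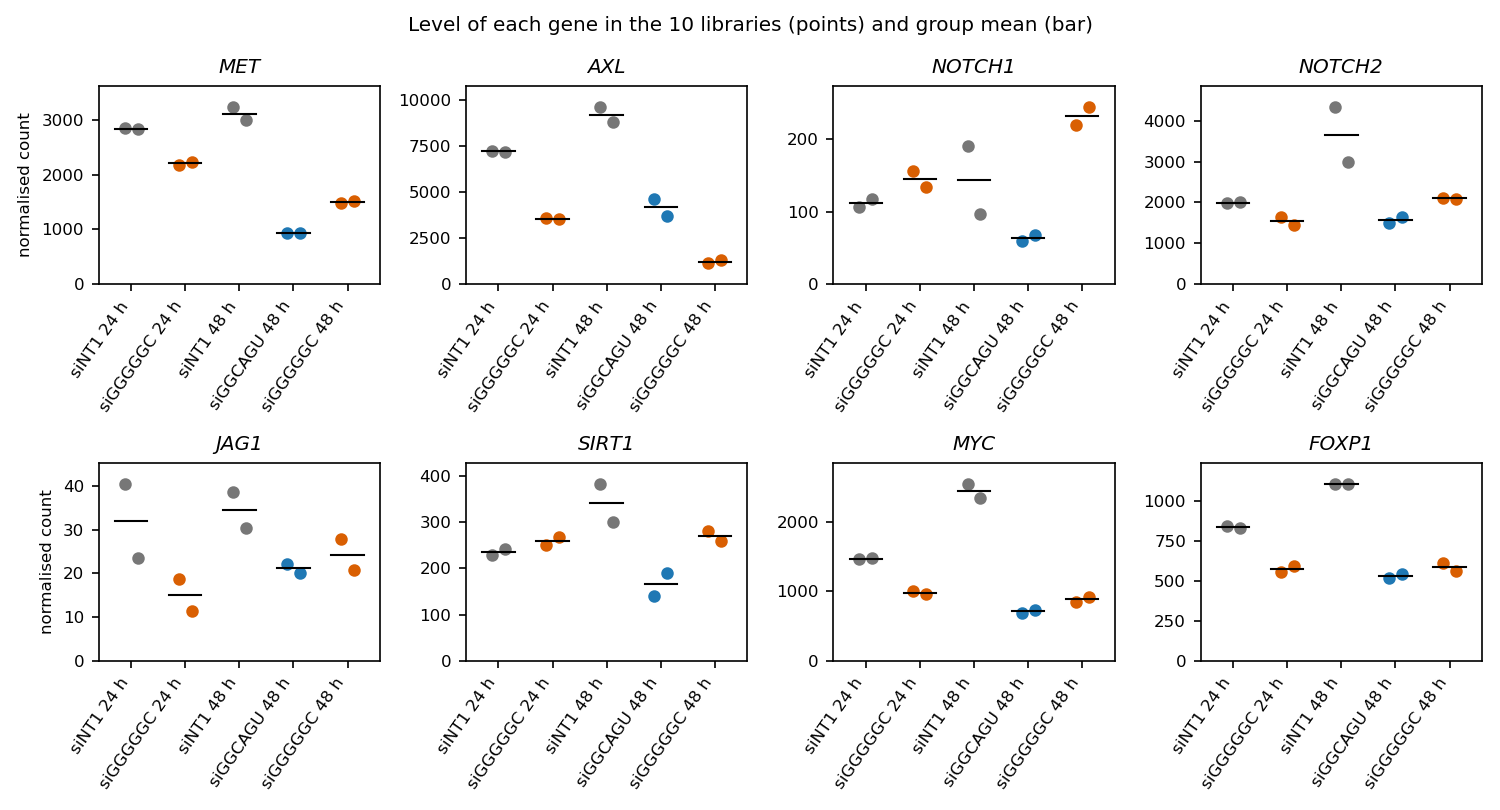
Normalised count (y axis, linear, from 0) of each gene in the 10 libraries, with the 2 libraries of a group as points and their mean as a bar. MET, MYC and NOTCH2 were lowest at 48 h in siGGCAGU, AXL in siGGGGGC, and NOTCH1 was above its siNT1 libraries only with siGGGGGC.

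The duplexes were then compared with each other at 48 h, a test that needs no siNT1 library. Of the 8 genes, 5 were lower with siGGCAGU (NOTCH1, SIRT1, MET, NOTCH2 and MYC), AXL was higher, and FOXP1 and JAG1 were not called. Over all genes, 26.7% were called lower and 27.6% higher. The differences largest in size were those of NOTCH1 (-1.85, SE 0.256, adjusted p = 1.82e-05) and AXL (1.78, SE 0.110, adjusted p = 3.24e-09). AXL with siGGCAGU was at 3.43 times its siGGGGGC level, and NOTCH1 at 27.8%.

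SIRT1 and MET each differed by -0.68 between the duplexes (adjusted p = 0.00189 and 5.43e-06). NOTCH2 differed by -0.42 (adjusted p = 0.0141) and MYC by -0.32 (adjusted p = 0.00703). The NOTCH2 call was lost without siGGCAGU replicate 1 (-0.36, adjusted p = 0.0586) and without either siGGGGGC library (-0.41 and -0.44, adjusted p = 0.0704 and 0.0552). The MYC call was lost without siGGGGGC replicate 2 (-0.26, adjusted p = 0.0838) and with no filter (-0.28, adjusted p = 0.061). FOXP1 differed by -0.14 (95% interval -0.34 to 0.054, adjusted p = 0.207). For JAG1 the interval was wide, from -0.97 to 0.55 around -0.21 (adjusted p = 0.648), and neither interval shows that the genes respond alike to both duplexes.

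Time was sampled with siGGGGGC and siNT1. At 24 h, 4 of the 8 genes had fallen with siGGGGGC (AXL, MYC, FOXP1 and MET) and none had risen, where 8.32% of all genes were called lower and 10.6% higher. AXL was at 3574 and 3548 with siGGGGGC against 7270 and 7195 with siNT1, a fall by 1.02 (SE 0.107, adjusted p = 1.07e-05). MYC was at 1002 and 967 against 1468 and 1486 (fall by 0.59, SE 0.0887, adjusted p = 0.000296). FOXP1 was at 554 and 591 against 842.5 and 830.1 (fall by 0.55, SE 0.0936, adjusted p = 0.000808).

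MET changed least of these, at 2183 and 2238 against 2845 and 2828 (fall by 0.36, SE 0.0812, adjusted p = 0.00577), and its call was lost when any of the 4 libraries was left out (adjusted p from 0.053 to 0.0788). NOTCH2 was at 1653 and 1451 against 1977 and 2008 (-0.36, adjusted p = 0.0769). JAG1 was at 18.8 and 11.4 against 40.6 and 23.6 (-1.09, SE 0.401, adjusted p = 0.0704), and its change ran from -0.64 without siNT1 replicate 1 to -1.48 without siGGGGGC replicate 1. All 3 had groups that did not overlap, as 30.7% of all genes had in the downward direction. SIRT1 was at 251 and 269 against 230.3 and 242 (0.14, adjusted p = 0.609), and NOTCH1 at 156 and 134 against 106 and 118 (0.38, adjusted p = 0.366). NOTCH2 passed at 24 h with upper quartile normalization (adjusted p = 0.0443), with no filter (0.0174) and with the 24 h libraries alone (0.000487).

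The change in the siGGGGGC effect from 24 h to 48 h was tested as an interaction. It was negative and called for 4 of the 8 genes (15.2% of all genes were called negative and 13.4% positive), AXL at -1.90 (SE 0.152, adjusted p = 5.28e-07), MYC at -0.88 (SE 0.124, adjusted p = 8.77e-05), MET at -0.70 (SE 0.115, adjusted p = 0.000324) and FOXP1 at -0.37 (SE 0.129, adjusted p = 0.0442). The FOXP1 call was kept in 5 of 17 alternatives and lost when any 1 of the 8 libraries compared was left out (adjusted p from 0.0556 to 0.161). For MYC the siGGGGGC level itself moved little between the times (1002 and 967, then 853 and 923), whereas siNT1 rose from 1468 and 1486 to 2561 and 2360. FOXP1 was alike, at 554 and 591, then 611 and 564 with siGGGGGC, while siNT1 went from 842.5 and 830.1 to 1109 and 1107. The interaction was not called for SIRT1 (-0.48, adjusted p = 0.116), NOTCH2 (-0.44, adjusted p = 0.0964), NOTCH1 (0.35, adjusted p = 0.494) or JAG1 (0.60, adjusted p = 0.418). These values hung on the siNT1 48 h libraries. Without replicate 2 NOTCH2 (-0.69, adjusted p = 0.00129) and SIRT1 (-0.66, adjusted p = 0.0274) were called, as both were with no filter (-0.57 and -0.61, adjusted p = 0.00174 and 0.0323), while without replicate 1 they were at -0.16 and -0.31 (adjusted p = 0.421 and 0.305). NOTCH1 was called without replicate 1 (0.88, adjusted p = 0.0119) and turned to -0.10 without replicate 2 (adjusted p = 0.776). JAG1 ran from 0.14 to 0.98 as single libraries were left out.

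The control itself changed with time. Between 24 h and 48 h in siNT1, 5 of the 8 genes rose and none fell, where 9.37% of all genes were called higher and 7.20% lower. NOTCH2 rose by 0.88 (SE 0.132, adjusted p = 0.000897), from 1977 and 2008 to 4335 and 2994. MYC rose by 0.74 (SE 0.0851, adjusted p = 0.000142), SIRT1 by 0.53 (adjusted p = 0.0268), FOXP1 by 0.41 (adjusted p = 0.00789) and AXL by 0.35 (adjusted p = 0.0327). MET (0.13, adjusted p = 0.267), NOTCH1 (0.33, adjusted p = 0.38) and JAG1 (0.081, adjusted p = 0.886) were not called. The calls of SIRT1 and AXL were lost when either siNT1 24 h library or siNT1 48 h replicate 1 was left out, that of AXL also with upper quartile normalization (0.30, adjusted p = 0.0557), and that of FOXP1 without either siNT1 24 h library. NOTCH1 was called without siNT1 48 h replicate 2 (0.77, adjusted p = 0.00511) and was at -0.21 without replicate 1. Time and medium change after transfection cannot be told apart in these samples.

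Against these 8 stands a list of 33 other genes reported as miR-34a targets, of which 28 passed the filter and 27 of those held ACTGCC in the longest 3′ UTR. CDK4 was the one without. With siGGCAGU at 48 h, 21 of the 28 fell, 2 rose and 5 were not called, with a median of -0.96. Over all genes tested, 24.9% were called lower and 27.8% higher with this duplex, and the median was 0.024. With siGGGGGC at 48 h, 10 fell and 12 rose, with a median of 0.18, where 27.5% of all genes were called lower and 27.8% higher. Between the duplexes 20 of the 28 were lower with siGGCAGU and 3 were higher, where 26.7% of all genes were called lower and 27.6% higher. The median of the 28 was -0.95, beside -0.37 for the 8 genes and 0.0086 over all genes.

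CDK4 and CCND1, which drive entry into S phase, and TGIF2, a repressor of TGF-beta signaling, fell most among the 28. CDK4 was at 1870 and 1555 in siNT1 at 48 h, 337 and 311 in siGGCAGU and 1341 and 1331 in siGGGGGC. It fell by 2.41 with siGGCAGU (adjusted p = 2.88e-10), and the difference between the duplexes was -2.05 (adjusted p = 1.5e-09). CCND1 fell by 2.08 (adjusted p = 2.51e-10) and TGIF2 by 1.82 (adjusted p = 1.75e-09) with siGGCAGU, against changes of -0.31 (adjusted p = 0.0122) and -0.034 (adjusted p = 0.779) with siGGGGGC. NAMPT, which makes the NAD precursor used by SIRT1, holds 2 ACTGCC words. It rose by 1.22 with siGGCAGU (adjusted p = 3.86e-08) and by 1.31 with siGGGGGC (adjusted p = 2.2e-08). PPP1R10, a regulatory subunit of protein phosphatase 1, rose by 0.36 (adjusted p = 0.00682).

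Other genes of the same pathways are given beside the shares over all genes with siGGCAGU, 24.9% called lower and 27.8% higher. Of 16 Notch processing genes tested, which cleave, glycosylate or route the receptors, 5 fell and 6 rose (median 0.10), near those shares. FURIN, the protease of the first cleavage, fell by 1.62 (adjusted p = 1.57e-06) and the gamma-secretase subunit APH1A by 0.78 (adjusted p = 2.26e-06). POFUT1, which adds fucose to the receptors, fell by 0.72 (adjusted p = 4.44e-06). Other gamma-secretase subunits, PSENEN (2.07, adjusted p = 1.68e-08) and APH1B (1.32, adjusted p = 9.95e-08), and the sheddase ADAM17 (1.38, adjusted p = 3.98e-09) rose. The sheddase ADAM10, named after its values were seen, was called lower (-0.39, adjusted p = 0.0492). ADAM17 also rose with siGGGGGC (1.76, adjusted p = 3.56e-10), while PSENEN was not called there (-0.18, adjusted p = 0.388).

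Among 7 nuclear factors and targets of Notch, 2 fell and 2 rose with siGGCAGU. The co-repressor SPEN fell by 0.72 (adjusted p = 0.0218), but its siNT1 libraries lay far apart. They were at 521.2 and 236.0 against 218.4 and 235.0 in siGGCAGU, so the fall rested on siNT1 replicate 1. The co-activator MAML1 fell by 0.43 (adjusted p = 0.0194). Its relatives MAML3 (2.12, adjusted p = 0.000138) and MAML2 (1.53, adjusted p = 4.21e-07) rose. HES1, a target of the cleaved receptors, was at 16.3 and 21.2 in siNT1 at 48 h, 22.2 and 35.0 in siGGCAGU and 132 and 139 in siGGGGGC. It rose with siGGGGGC (2.83, adjusted p = 5.98e-08) and was not called with siGGCAGU (0.65, adjusted p = 0.059). The ligands JAG2 and DLL4 were at most at 32 counts in a library, and both rose with siGGGGGC at 48 h (adjusted p = 0.00166 and 1.25e-05) and were not called with siGGCAGU (adjusted p = 0.303 and 0.269). Of the 7 nuclear factors and targets, 4 rose with siGGGGGC at 48 h, among them HEY1 (0.65, adjusted p = 0.0235). RBPJ, the DNA-binding partner of the cleaved receptors, fell (-0.28, adjusted p = 0.0147). Over all genes, 27.8% were called higher and 27.5% lower with siGGGGGC at that time. The other receptors had few counts, at most 11 in a library for NOTCH3 and 47 for NOTCH4. They were not called with siGGCAGU, and with siGGGGGC at 48 h NOTCH3 rose (1.97, adjusted p = 0.0463) and NOTCH4 fell (-1.13, adjusted p = 0.0193). HES1, HEY1, RBPJ and these ligands and receptors are named after their values were seen.

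Around MET, 6 further pathway genes were tested, of which 2 fell and 4 rose with siGGCAGU. SPINT2, an inhibitor of the activation of the MET ligand, had at most 24 counts in a library and fell by 1.21 (SE 0.413, adjusted p = 0.0223). CBL, the ubiquitin ligase of MET, fell by 0.74 (adjusted p = 0.000205). The phosphatase PTPRJ rose by 1.38 (adjusted p = 6.11e-09), the partner receptor PLXNB1 by 1.31 (adjusted p = 8.54e-05) and the adaptor GAB1 by 0.46 (adjusted p = 0.0306). Of the 4 other TAM receptors and ligands, TYRO3, a receptor, fell by 0.82 (adjusted p = 8.44e-06) and 3 were not called. TYRO3 also fell with siGGGGGC at 48 h (-0.91, adjusted p = 3.28e-06).

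Of 12 other sirtuins and genes of NAD supply, 8 rose and 1 fell with siGGCAGU (median 0.64). HIC1, a repressor of SIRT1 transcription, fell by 1.23 (adjusted p = 2.3e-05). SIRT4 (1.34, adjusted p = 0.00303), NMNAT2, an enzyme that makes NAD (1.32, adjusted p = 9.82e-07), and NAMPT rose. NMNAT2 fell with siGGGGGC (-1.87, adjusted p = 5.19e-07), and the difference between the duplexes was 3.19 (adjusted p = 8.91e-10). In the FOXP family, FOXP4 was the 1 other gene tested, at -0.14, and was not called.

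The partners and rivals of MYC split, with 5 of 13 lower and 4 higher under siGGCAGU. The antagonist MXD3 (-1.69, adjusted p = 0.000144), AURKA, which stabilises MYC family proteins (-1.57, adjusted p = 8.67e-10), and MLXIP (-0.61, adjusted p = 0.00195) fell. Other antagonists, MXD4 (0.90, adjusted p = 3.31e-05) and MXD1 (0.81, adjusted p = 6.15e-05), and the partner ZBTB17 (0.45, adjusted p = 0.00193) rose. Of 14 genes that MYC is known to activate, 11 fell and 1 rose with siGGCAGU (median -0.91). With siGGGGGC at 48 h 8 fell (median -0.38), where 27.5% of all genes were called lower. At 24 h with siGGGGGC 1 of the 14 was called, CDK4, which was higher (0.32, adjusted p = 0.0454). Over all genes 8.32% were called lower and 10.6% higher at that time, so the count is near those shares. NCL, a nucleolar protein, was at 20240 and 16040 in siNT1 and at 3136 and 9125 in siGGCAGU, whose libraries lay far apart, and fell by 1.56 (SE 0.302, adjusted p = 0.00044). TERT, with at most 14 counts in a library, fell by 3.51 (adjusted p = 0.0131), and CDK4 is also in this list. PRMT5, an arginine methyltransferase, rose by 0.34 (adjusted p = 0.00524).

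**Figure D4:**
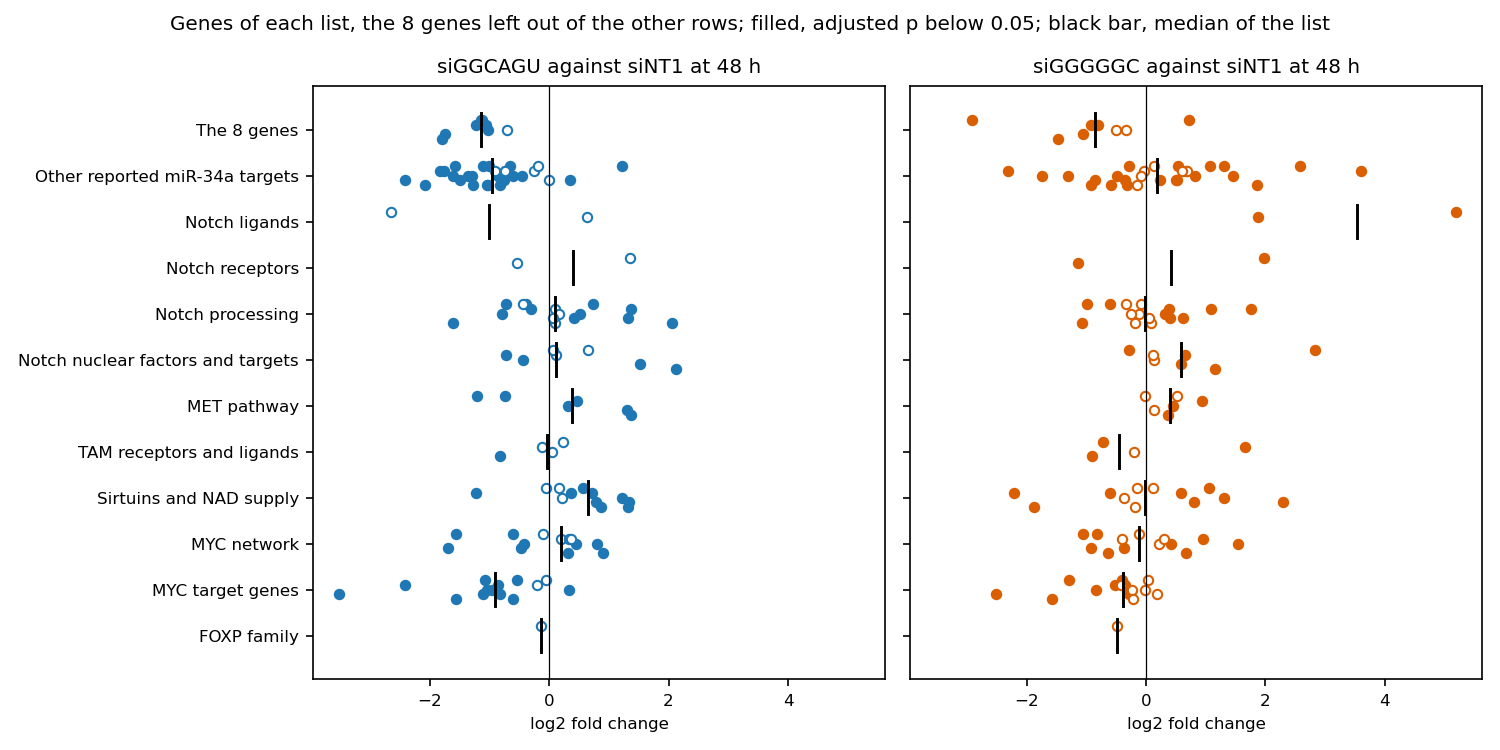
Log2 fold change against siNT1 at 48 h of the genes of each list (rows) with siGGCAGU (left, blue) and siGGGGGC (right, orange), the 8 genes being left out of the other rows; filled points had an adjusted p below 0.05 and black bars are medians. The other reported miR-34a targets lie mostly below 0 with siGGCAGU (median -0.96) and on both sides with siGGGGGC (median 0.18), and the same 2 siNT1 libraries serve both panels.

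Across the 10 libraries, the genes whose log2 level followed each of the 8 most closely were found by the root mean square difference after centring, among 9978 genes of mean normalised count of at least 100. KIF20B (0.0889) was nearest to MET, FRMD3 (0.132) to AXL, HDAC2 (0.118) to SIRT1, MAP2K3 (0.125) to NOTCH1, TSKU (0.146) to NOTCH2, VPS37B (0.235) to JAG1, FURIN (0.174) to MYC and IPO7 (0.0634) to FOXP1. The next were KCNQ5, GPRIN1, GXYLT1, CHD7, PTBP1, BLTP3A, SCARB1 and SLC9A7 in the same order of genes. None of the 8 was among the nearest pair of another, and JAG1, below the count of 100, could not be. The closest of the 8 to each other were NOTCH2 and FOXP1 (0.246) and MYC and FOXP1 (0.253), while MET and MYC differed by 0.319. The likeness rests on 5 group levels in 10 libraries of 1 cell line and is a description.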

How the data were processed

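Total RNA of HeyA8 cells, depleted of ribosomal RNA, was sequenced paired-end. Reads were trimmed by the authors with Trimmomatic, aligned to hg38 (TopHat with Bowtie2 per the labels, or STAR) and counted over the exons of each Ensembl gene with HTSeq. The deposited files hold raw counts for 58395 genes, whole numbers with no normalization. The strand setting is not given in the sources used here. The authors' 4 tables of comparisons (mean normalised count, log2 fold change and adjusted p) were not used.

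Groups came from the labels. edgeR 4.0.16 (R 4.3.3) was fitted once to all 10 libraries and 5 groups, with TMM, filterByExpr (16905 genes) and 5 residual degrees of freedom. The quasi-likelihood F test was adjusted by Benjamini-Hochberg over all genes tested, and an adjusted p below 0.05 was called. The biological coefficient of variation was 0.0837. A normalised count is scaled to an effective library of 25982985 counts. RPKM uses the union of exons in GENCODE 44, in which 98.9% of the identifiers were found. SE is the fold change over the root of F, and 95% intervals use the t distribution. Scripts were tested on simulated counts.

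The 8 genes and all lists were chosen with earlier results of these data known. From each list, up to 3 genes per direction were named by size among those called without overlap with siGGCAGU at 48 h, and for each of the 8 the 2 genes nearest in pattern. Genes named outside this rule are marked so or stand for a list. Alternatives were the DESeq2 1.42.0 test, other normalizations and filters, a replicate block, and leaving out each library. Duplicates of a group differed by more than sampling noise, with a chi-square of 2.57 to 58 per degree of freedom.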

Additional observations from a re-analysis of the deposited data

Results flagged for a closer look

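For 4 of the 8 genes the siGGGGGC effect differed between the time points by the interaction term of the edgeR fit. The effect at 48 h minus that at 24 h was -1.90 for AXL (adjusted p = 5.28e-07), -0.88 for MYC (adjusted p = 8.77e-05), -0.70 for MET (adjusted p = 0.000324) and -0.37 for FOXP1 (adjusted p = 0.0442). Over the 17 alternatives run for each, AXL kept between -2.03 and -1.83, MYC between -1.02 and -0.84 and MET between -0.84 and -0.66, and all of these were called. FOXP1 lay between -0.50 and -0.32, with adjusted p from 0.025 to 0.161, and was called in 5 of the 17. With 2 libraries in a group, no search for a library apart from its group was possible.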

How the results depend on the processing

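Of 650 recomputed values of the 8 genes, 599 kept their direction and their side of the threshold, 32 lost a call, 14 gained one and 5 turned direction. The 7 falls with siGGCAGU and the 5 with siGGGGGC at 48 h were called under every alternative run. With siGGGGGC at 24 h, 3203 genes were called, 5105 with the libraries compared only (14869 genes tested), and 1471 to 1743 without a library. In siNT1 over time, 2801 genes and 5 of the 8 were called, and without a library 470 to 3528 genes and 2 to 6 of the 8, all but the siNT1 48 h replicate 2 omission giving fewer. The cause was not tested. Values that turned direction without a library, given as the range over omissions, were JAG1 between the duplexes (-0.42 to 0.020), the NOTCH1 interaction (-0.10 to 0.88), and in siNT1 over time JAG1 (-0.23 to 0.54) and NOTCH1 (-0.21 to 0.77), none of them called with all libraries. The FOXP1 interaction lost its call in 12 of 17 alternatives, among them upper quartile normalization (-0.33, adjusted p = 0.0711) and DESeq2 (adjusted p = 0.106).

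Same-numbered libraries did not deviate together (correlations from -0.293 to 0.115). With 2 libraries per group, these values cannot decide whether equal numbers share a plate or batch. With the number as a replicate block, 8625, 9101 and 2849 genes were called for siGGCAGU at 48 h and siGGGGGC at 48 h and 24 h, and the one call it changed among the 8 was the FOXP1 interaction (-0.37, adjusted p = 0.066). A block with the siNT1 48 h numbers crossed, chosen after seeing the data, called 8831, 9269 and 3071 genes. Depth limits JAG1 most, and with 2 libraries per group small changes of NOTCH1 and SIRT1 were not detectable.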
